A study of Homo sapiens with 6 samples.

Results

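The DNA replication machinery and its nucleotide supply were followed through 8 genes in HeyA8 cells, an established human ovarian cancer cell line, with and without magnetic fluid hyperthermia (MFH) (heat given off by magnetic nanoparticles in an alternating field). The genes were MCM2 (probe ILMN_1681503), MCM4 (ILMN_1737205), MCM6 (ILMN_1798654), CDC45 (ILMN_1670238), GINS2 (ILMN_1809590), PCNA (ILMN_1694177), TYMS (ILMN_1806040) and TK1 (ILMN_1806037). They were chosen by name, each with 1 fixed probe of an Illumina bead array, and so made up 8 of the 47231 probes in the table. All 8 probe identifiers were present, and the platform annotation paired each with the gene it was chosen for. Total RNA of 3 untreated and 3 MFH-treated samples of parental HeyA8 cells was read on 1 array each. The temperature, the length of treatment and the time of harvest are not given in the sources used here, and no array of nanoparticles alone or of field alone was analysed here. The comparison therefore covers the treatment as a whole in 1 cell line.

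Before S phase, chromosomal origins are licensed by loading the ring-shaped MCM2-7 helicase. The helicase is switched on when CDC45 and the GINS complex join it, and the sliding clamp PCNA then holds the DNA polymerases on the template. Thymidylate synthase (TYMS) and thymidine kinase (TK1) supply the thymidine nucleotides that the polymerases use. Transcription of many of these genes rises at the G1/S border under E2F transcription factors, and their messages are commonly used as signs of proliferation in tumour cells.

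On the 8 member probes, the levels after MFH stayed close to those of untreated cells. A second, dim PCNA probe that is no member passed the threshold and read 1.35-fold higher, as described with PCNA. No member passed the threshold of a limma adjusted p of 0.05, where 12.3% of the 23615 probes tested across the array did (5.7% higher and 6.58% lower). The estimated changes ran from -0.22 for GINS2 to 0.06 for PCNA on the log2 scale, with 3 estimates above and 5 below 0. The median absolute log2 change was 0.05 among the 8 genes and 0.13 over all tested probes. Every one of the 8 limma 95% intervals lay within 1.5-fold in either direction, and 7 of them included 0. The widest limits reached were 1.34-fold lower, for GINS2, and 1.23-fold higher, for PCNA. These intervals are not adjusted for the number of probes. Nothing in the labels tells if the replicates were separate cultures. All p-values and intervals thus rest on differences among these arrays, possibly technical ones.

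**Figure D1:**
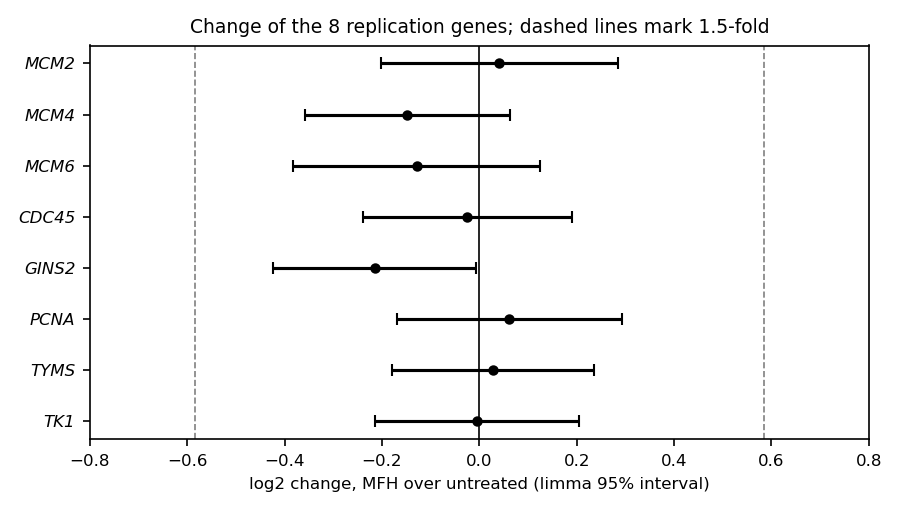
Estimated log2 change (MFH over untreated, horizontal axis) of the 8 replication genes with limma 95% intervals, 3 arrays per group. All intervals lie between the dashed lines at 1.5-fold, and only that of GINS2, from -0.42 to -0.01, does not include 0.

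The treatment itself was plain in the same arrays. HSPA6, a strictly heat-inducible HSP70 chaperone, had raw intensities of 346, 311 and 365 on the untreated arrays and 22277, 18139 and 14131 on the MFH arrays, a log2 change of 5.81 ± 0.15 (SE, limma adjusted p = 4.0e-12). DNAJB1, an HSP40 co-chaperone, rose by 3.14 ± 0.11 and HSPA1A by 1.58 ± 0.11 on the log2 scale (SE, limma adjusted p = 1.5e-10 and 6.9e-07). HSPA1A is nearly identical to HSPA1B, so its probe may read both. In the list of 10 heat shock chaperones 8 rose and 0 fell, beside 6.2% higher and 9.49% lower among all 12596 genes tested by their brightest probe. The other 2, HSP90AA1 and HSPD1, were above 0 in estimate, at an unadjusted limma p over 0.05. For HSPD1, 2 further probes passed the threshold where the brightest did not, in a direction not given here.

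The arrays were of similar brightness, with median raw intensities from 102 to 127, and 42.8% to 45.2% of the probes lay above background. Background was taken as the mode of an array's raw intensities plus 2 SD, with the SD taken about the mode from the values below it. The labelled cell line was checked against marker lists. VIM and CDH2, markers of mesenchymal cells, and KRT8 and PAX8, markers of epithelial and Müllerian origin, were above background on all 6 arrays, as were 8 of 10 epithelial and ovarian markers in all. CDH1, the epithelial cadherin, was above background on none and MUC16 on 1. Among the markers listed for other cells, PTPRC and CD3E (leukocytes) and VWF (endothelium) were above background on 0 arrays. So were COL3A1, DCN, LUM and PDGFRA (fibroblasts) and HBB and ALAS2 (red cells). Others of the same lists were above it on some arrays: CD14 on 4 and LYZ on 3 (leukocytes), PECAM1 on 5 and KDR on 4 (endothelium), COL1A2 on 2 (fibroblasts) and HBA1 on 1 (red cells). CD68, which carcinoma cells can also express, was above it on all 6. CDH5 (endothelium) and COL1A1 (fibroblasts) were also above it on all 6. PAX8 fell by 0.64 ± 0.10 (SE) on the log2 scale after MFH (limma adjusted p = 0.00063), a call kept without any single array. KRT8 fell by 0.34 ± 0.10 and COL1A1 rose by 0.35 ± 0.10 (SE, limma adjusted p = 0.038 and 0.036), and both calls were lost on leaving out any 1 of the 6 arrays. The part of these shifts in the results on replication genes was not tested.

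The control regions of these genes share short letter patterns. RefSeq promoters (GRCh38.p14, 250 bases before to 50 after the start) were matched by symbol for 7 of the 8 genes, and the promoter of MCM4 was not used here. The letters TTTCCCGC, TTTGGCGC, TTTGCCGC or TTTCGCGC, forms of the E2F site, were searched on both strands and were present in at least 1 promoter of 5 of these 7 genes, namely MCM2, MCM6, GINS2, PCNA and TYMS. Of all 27305 genes with a promoter in the table, 3.99% held them in at least 1. Counted by promoter, 5 of 11 of the member genes held them, beside 3.31% of all 35116 promoters of the same length. The promoters of MCM2, MCM6 and GINS2 are shown because their start regions carry these letters in 3 different arrangements, while GINS2 had the largest estimated change of the 8 genes. Capitals mark the E2F letters on either strand, read 5′ to 3′ along the gene's strand.
MCM2 (chr3:127598161-127598460, plus strand): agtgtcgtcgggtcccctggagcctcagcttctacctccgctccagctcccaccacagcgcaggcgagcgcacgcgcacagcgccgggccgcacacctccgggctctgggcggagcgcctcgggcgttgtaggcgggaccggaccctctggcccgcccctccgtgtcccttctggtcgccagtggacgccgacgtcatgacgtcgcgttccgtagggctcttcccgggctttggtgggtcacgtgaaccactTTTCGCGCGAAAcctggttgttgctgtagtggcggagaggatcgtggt
MCM6 (chr2:135876394-135876693, minus strand): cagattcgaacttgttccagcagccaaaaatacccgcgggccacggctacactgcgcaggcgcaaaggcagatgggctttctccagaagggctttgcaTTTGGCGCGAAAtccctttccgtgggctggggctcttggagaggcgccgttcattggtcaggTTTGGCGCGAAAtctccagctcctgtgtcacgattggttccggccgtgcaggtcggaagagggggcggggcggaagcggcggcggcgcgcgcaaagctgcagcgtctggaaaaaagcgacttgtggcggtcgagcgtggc
GINS2 (chr16:85688905-85689204, minus strand): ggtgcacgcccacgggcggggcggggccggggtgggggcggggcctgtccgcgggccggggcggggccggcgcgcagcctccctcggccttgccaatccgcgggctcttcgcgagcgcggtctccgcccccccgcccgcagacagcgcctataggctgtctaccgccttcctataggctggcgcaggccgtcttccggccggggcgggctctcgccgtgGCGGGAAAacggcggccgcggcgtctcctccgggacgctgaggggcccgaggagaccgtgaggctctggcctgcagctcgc
In MCM2 and MCM6 each run of capitals is a pair of overlapping matches, 1 on each strand, and MCM6 has 2 such runs. GINS2 has a single match, GCGGGAAA, which is TTTCCCGC on the opposite strand. PCNA and TYMS hold the same letters once, and in PCNA they overlap an Sp1 box (GGGCGG). A match describes letters only and is not a measured binding site.

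**Figure D2:**
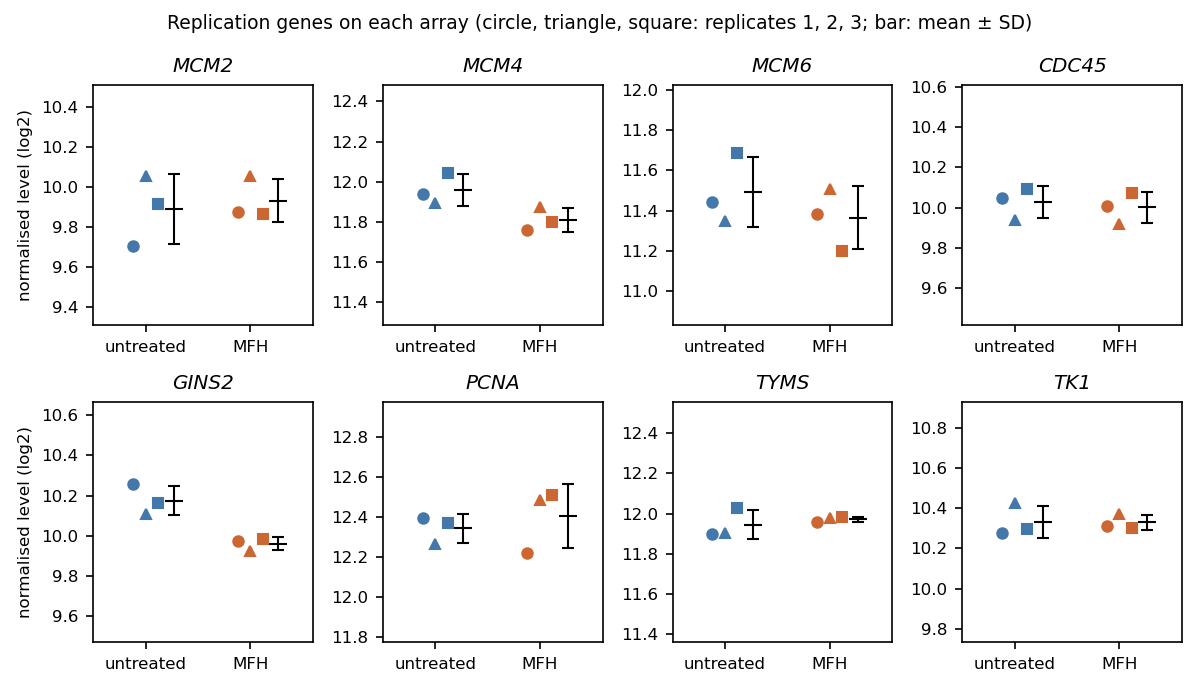
Normalised log2 level of each replication gene on each array (vertical axis, the same 1.2-unit span in every panel), with untreated arrays left and MFH arrays right and bars for mean ± SD (n = 3). The groups overlap for every gene except MCM4 and GINS2, whose MFH values all lie below the untreated ones.

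The MCM helicase was represented by 3 members. MCM2, a helicase subunit and a target of the kinase that fires origins, gave raw intensities of 952, 920 and 1039 on the untreated arrays and 1206, 947 and 963 on the MFH arrays. After normalization its log2 level was 9.70, 10.05 and 9.91 in untreated cells and 9.87, 10.06 and 9.86 after MFH. The lowest array was untreated replicate 1 and the highest was MFH replicate 2, and the groups overlapped. The log2 change was 0.04 ± 0.11 (SE), with a limma 95% interval of -0.20 to 0.28 and an adjusted p of 0.88.

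MCM4, a subunit of the helicase's catalytic core, gave raw intensities of 4191, 3148 and 4333 in untreated cells and 4375, 3373 and 3686 after MFH. Its normalised log2 level was 11.94, 11.89 and 12.04 in untreated cells and 11.76, 11.88 and 11.80 after MFH, so that the highest MFH array lay just under the lowest untreated one. The log2 change of MCM4 was -0.15 ± 0.10 (SE, interval -0.36 to 0.06), at a limma adjusted p of 0.41. The second MCM4 probe on the array, ILMN_2412860, was above background on all 6 arrays and gave -0.23 ± 0.13 (SE) with overlapping groups (limma adjusted p = 0.31).

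MCM6, which sits in the same catalytic core, varied between the replicates of both groups. Raw intensities were 3043, 2196 and 3374 in untreated cells and 3345, 2601 and 2408 after MFH. On the normalised log2 scale untreated replicate 3 was highest at 11.69 and MFH replicate 3 lowest at 11.20, with the other 4 arrays between 11.35 and 11.51. The MCM6 log2 change was -0.13 ± 0.12 (SE, interval -0.38 to 0.12), at a limma adjusted p of 0.58. The remaining subunits stood close to 0 as well: the log2 change was -0.10 ± 0.12 for MCM3, 0.06 ± 0.10 for MCM5 and below 0.01 in size for MCM7 (limma adjusted p = 0.70, 0.80 and 1.00). None of the 6 subunits of the ring passed the threshold, where 15.7% of all genes tested by their brightest probe did.

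CDC45, which joins the loaded MCM ring to form the active helicase, had raw intensities of 1199, 852 and 1165 in untreated cells and 1318, 855 and 1104 after MFH. The second replicate was the dimmest array of both groups. Normalised log2 levels of CDC45 were 10.05, 9.94 and 10.09 untreated and 10.01, 9.92 and 10.07 after MFH, and the groups overlapped almost completely. The change was -0.03 ± 0.10 on the log2 scale (SE, interval -0.24 to 0.19), at a limma adjusted p of 0.92.

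GINS2, a subunit of the GINS complex that binds CDC45 and the MCM ring, gave the largest estimate. Its raw intensities were 1375, 958 and 1213 in untreated cells and 1289, 859 and 1047 after MFH. The normalised log2 levels of GINS2 were 10.26, 10.11 and 10.16 against 9.97, 9.92 and 9.98, so all MFH arrays lay below all untreated arrays. The log2 change was -0.22 ± 0.10 (SE, interval -0.42 to -0.01), or 1.16-fold lower. Its limma p was 0.044 before and 0.19 after adjustment over all tested probes, so GINS2 did not pass the threshold. Groups that did not overlap were found for 2 of the 8 members, MCM4 and GINS2, and for 28.7% of all tested probes. An unadjusted limma p under 0.05 was found for 1 of 8 members and for 24.4% of all tested probes. The other GINS subunits gave log2 changes of -0.07 ± 0.13 for GINS1, 0.22 ± 0.11 for GINS3 and -0.10 ± 0.11 for GINS4, none past the threshold (limma adjusted p = 0.80, 0.24 and 0.67). GINS1 was above background on 2 arrays.

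PCNA, the sliding clamp, had 3 probes on the array. The member probe, ILMN_1694177, was the brightest, with raw intensities of 5767, 3950 and 5390 in untreated cells and 6048, 5099 and 6063 after MFH. Its normalised log2 levels were 12.40, 12.26 and 12.37 against 12.22, 12.48 and 12.51. MFH replicate 1 was the lowest of all arrays and MFH replicates 2 and 3 were the highest. The log2 change was 0.06 ± 0.11 (SE, interval -0.17 to 0.29), at a limma adjusted p of 0.80.

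The second PCNA probe, ILMN_1706958, was dim, with raw intensities of 158, 118 and 162 in untreated cells and 201, 170 and 208 after MFH. All MFH values of that probe were above all untreated ones. It rose by 0.43 ± 0.12 (SE) on the log2 scale, at a limma adjusted p of 0.026. The call was lost with median scaling (adjusted p = 0.13), with the background mode subtracted (0.086), and without untreated replicate 1 (0.056), untreated replicate 2 (0.11), MFH replicate 2 (0.093) or MFH replicate 3 (0.077). With the mode subtracted its log2 change was 0.94. The remaining PCNA probe was above background on 0 arrays and was not tested. Which PCNA transcripts each probe reads was not analysed here. This was the 1 call among the 2 further tested probes of the member genes.

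The nucleotide supply was represented by TYMS and TK1. TYMS makes thymidine monophosphate from deoxyuridine monophosphate and is the target of fluorouracil. Its raw intensities were 4081, 3169 and 4288 in untreated cells and 5047, 3592 and 4214 after MFH. Normalised log2 levels of TYMS were 11.90, 11.90 and 12.03 untreated and 11.96, 11.98 and 11.98 after MFH, so the MFH arrays fell between the untreated extremes. The change was 0.03 ± 0.10 on the log2 scale (SE, interval -0.18 to 0.24), at a limma adjusted p of 0.91.

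TK1, the salvage enzyme that phosphorylates thymidine, had raw intensities of 1397, 1182 and 1323 in untreated cells and 1630, 1169 and 1299 after MFH. The normalised log2 levels of TK1 were 10.28, 10.42 and 10.30 untreated and 10.31, 10.37 and 10.30 after MFH. Untreated arrays were both the lowest and the highest. The log2 change was below 0.01 in size, with an SE of 0.10 (interval -0.21 to 0.21, limma adjusted p = 0.99).

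Each of the 8 member probes exceeded background on every array, and the dimmest reading of each was between 7.48 and 36.8 times the background limit of its array. Raw intensity was lowest on untreated replicate 2 for 6 members and on MFH replicate 2 for the other 2, and highest on MFH replicate 1 for 5. After normalization untreated replicate 3 was highest for 4 of the 8 members and no MFH array was highest for more than 1. The SD within a group of 3 arrays ran from 0.01 for TYMS after MFH to 0.18 for MCM2 in untreated cells, on the log2 scale. In size, the changes of MCM4 and GINS2 exceeded the SD of both their own groups. That of TYMS exceeded its SD after MFH only, and those of the other members were below both. An exact two-sided permutation test over the 20 assignments of arrays gave p between 0.1 and 1 for the 8 members, where 0.1 is the smallest it can give.

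**Figure D3:**
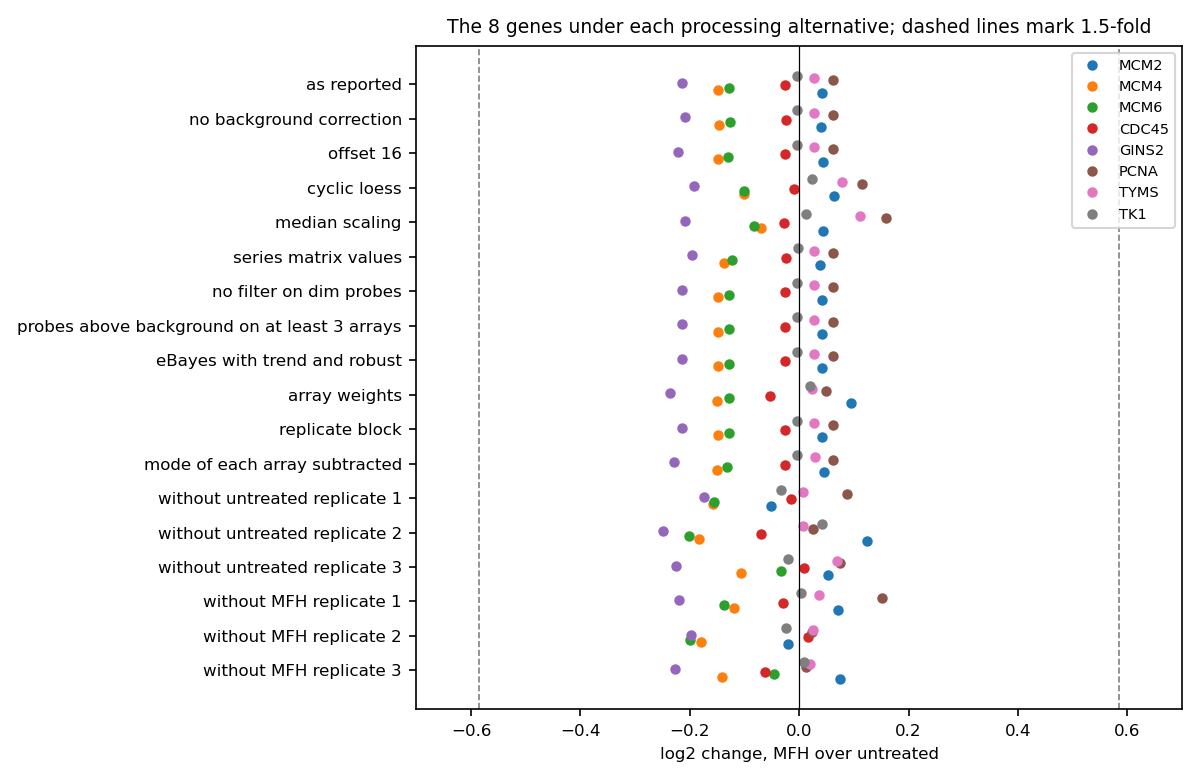
Log2 change (MFH over untreated, horizontal axis) of the 8 replication genes as reported and under 17 processing alternatives, each row a setting and each colour a gene. All points lie between -0.25 and 0.16, well inside the dashed lines at 1.5-fold.

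The members were also read under other processing. In 136 estimates, the 8 members under 17 alternatives each, the log2 change ran from -0.25 to 0.16 and 0 estimates passed the threshold (lowest limma adjusted p = 0.11). All 136 limma 95% intervals lay within 1.5-fold, from -0.55 to 0.48 on the log2 scale. The background that stays in the values draws fold changes towards 1. With the mode of each array subtracted, values below a fixed floor were raised to it and no offset was added. Under this alternative, chosen after seeing the data, the estimates ran from -0.23 for GINS2 to 0.06 for PCNA.

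The wider replication pathway was read from 6 lists with 71 genes tested by their brightest probe. Few of them passed the threshold: 1 rose and 2 fell, or 4.23% of the 71, beside 15.7% of all 12596 genes tested in the same way. The median log2 change was -0.01 in the lists and -0.03 over all tested genes, and the lists ran from -0.57 to 0.39. At an unadjusted limma p under 0.05 the count was 14 of 71 in the lists and 3644 of 12596 over all genes. The untreated and MFH arrays did not overlap for 24 of the 71 and for 4262 of the 12596, a like share. The count of calls depended on single arrays and on the processing: it was 1 without untreated replicate 1 or untreated replicate 3, 5 without MFH replicate 3, and 0 with median scaling. With the mean over all probes of a gene in place of the brightest it was 8, of which 1 rose and 7 fell. Of the genes that this fit added, CHTF18, POLA2, POLE2 and RECQL4 have 1 probe each and kept the log2 changes of the fit reported. The share called over all genes in this fit is not given here.

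POLE, the catalytic subunit of the leading-strand polymerase, had the largest estimate of the pathway in the processing reported, though not with the mode of each array subtracted, where CDC6 and TICRR exceeded it. Its raw intensity was 554, 384 and 576 on the untreated arrays and 417, 310 and 355 on the MFH arrays. The raw ranges overlapped, but after normalization every MFH array lay below every untreated one. POLE fell by 0.57 ± 0.11 (SE) on the log2 scale (limma adjusted p = 0.0030), a call kept without any single array and lost with median scaling (adjusted p = 0.056). Its partner subunit POLE2 gave -0.31 ± 0.10 (SE, limma adjusted p = 0.066), and POLE3 and POLE4 gave -0.22 ± 0.12 and 0.07 ± 0.10 (SE, adjusted p = 0.26 and 0.75). Of the 19 genes for polymerases and lagging-strand work 0 rose and 1 fell, with 13 estimates below 0 and a median log2 change of -0.13, beside 6.2% higher, 9.49% lower and 7027 of 12596 estimates below 0 over all genes.

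CDC6, which loads the MCM ring onto origins, rose. It was the 1 gene of 12 tested in the origin licensing list past the threshold, beside 15.7% of all genes. That list also held MCMBP, MCM8 and MCM10. The raw intensity of CDC6 was low, at 137, 118 and 132 in untreated cells and 186, 149 and 173 after MFH, with no overlap between groups. The CDC6 log2 change was 0.39 ± 0.10 (SE, limma adjusted p = 0.016), or 1.02 with the mode of each array subtracted. The call was lost with median scaling (adjusted p = 0.090) and without untreated replicate 1 (0.051), untreated replicate 3 (0.060) or MFH replicate 2 (0.065). Its licensing partner CDT1 gave 0.01 ± 0.14 and the CDT1 inhibitor GMNN -0.06 ± 0.12 on the log2 scale (SE, limma adjusted p = 0.98 and 0.81).

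TICRR works with TOPBP1 to bring CDC45 to the helicase. In the list of helicase activation and fork factors it was the 1 gene of 15 past the threshold, beside 15.7% of all genes. It fell by 0.35 ± 0.10 (SE) on the log2 scale (limma adjusted p = 0.040) from a dim raw intensity of 163 ± 25 to 145 ± 22 (SD, n = 3). With the mode of each array subtracted the change was -0.86. The call was lost without any 1 of 4 arrays, namely untreated replicates 1 and 3 and MFH replicates 1 and 2 (adjusted p = 0.095 to 0.15), with median scaling (0.27) and without background correction (0.053). TOPBP1 itself gave 0.01 ± 0.14 (SE, limma adjusted p = 0.98).

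By the brightest probe of each gene, the lists of the clamp with its loader and of nucleotide supply held no call, while the second PCNA probe was called as given above. In the list of clamp and clamp loader genes 0 of 8 passed the threshold, at 2 of 8 under an unadjusted limma p of 0.05. RFC1, the large clamp loader subunit, gave 0.30 ± 0.11 and CHTF18, of an alternative loader, -0.32 ± 0.10 on the log2 scale (SE, limma adjusted p = 0.092 and 0.058). In nucleotide supply 0 of 11 tested genes passed, at 3 of 11 under an unadjusted limma p of 0.05. Over all genes tested by their brightest probe 15.7% passed the threshold. An unadjusted limma p under 0.05 was found for 3644 of these 12596 genes. The ribonucleotide reductase subunits RRM1 and RRM2 gave 0.02 ± 0.11 and -0.10 ± 0.16 (SE, limma adjusted p = 0.93 and 0.76). DTYMK, the kinase that follows TYMS and TK1, gave -0.32 ± 0.10 (SE, limma adjusted p = 0.057).

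**Figure D4:**
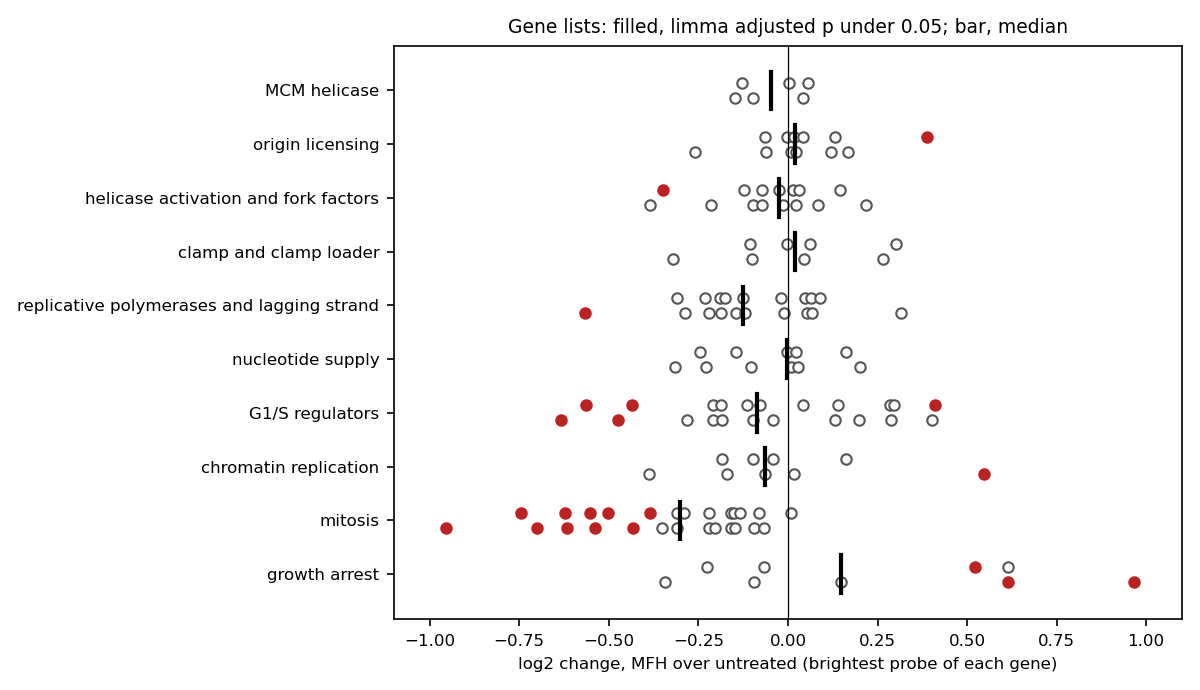
Log2 change (MFH over untreated, horizontal axis) of each tested gene by its brightest probe, 1 circle per gene, in the 6 replication lists and 4 neighbouring lists. Filled circles passed a limma adjusted p of 0.05 and bars mark list medians, which are -0.05 for the MCM helicase and -0.30 for mitosis.

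Genes of mitosis, the later stage of the cell cycle, were counted beside them. In the mitosis list 0 of 26 genes rose and 10 fell, with 25 of 26 estimates below 0 and a median log2 change of -0.30. Among all genes 6.2% rose and 9.49% fell, and 7027 of 12596 estimates were below 0. KIF11 was not called by its brightest probe, while 1 further probe of it passed the threshold, in a direction not given here. CENPA, the centromere histone, fell by 0.95 ± 0.11, AURKB, the kinase of the chromosomal passenger complex, by 0.75 ± 0.12, and its partner CDCA8 by 0.70 ± 0.11 on the log2 scale (SE, limma adjusted p = 6.1e-05, 0.00081 and 0.00056). Mitosis falls numbered 8 to 12 without single arrays, 3 with median scaling and 6 with the mode subtracted. The difference between the replication and mitosis lists was not tested, since the members were chosen with results of these data known.

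The promoter letters were counted in both lists. The E2F letters were held by 28 of 62 replication genes with a promoter in the table, by 3 of 21 mitosis genes and by 3.99% of all 27305 genes with a promoter in the table. The letters TTTGAA, a form of the CHR element known from mitotic promoters, were held by 4 of the 62, 14 of the 21 and 18.2% of all genes, on either strand. None of the 7 member genes held TTTGAA in these windows. CCAAT was held by 5 of the 7 and GGGCGG, the Sp1 box, by 6 of the 7, beside 39.7% and 48.3% of all genes.

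By correlation over the 6 arrays, the profiles most like the mean of the 8 standardised members among genes outside the lists were those of KIF3A, ACOT2, ARHGAP27, ITGB7 and FAM178B, with Pearson's r of 0.986, 0.984, 0.980, 0.979 and 0.979 and Spearman's rho of 0.943, 1.00, 0.943, 0.771 and 0.943. These are the highest values of a search over all genes outside the lists with 6 arrays and describe these arrays only. All 5 probes were dim, and none of the 5 genes passed the threshold. The shared profile was highest on untreated replicate 3 and lowest on MFH replicate 1.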

How the data were processed

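The table used holds average bead intensities for 47231 probes on a linear scale, which the authors deposited as non-normalized; the submitters' processing notes name BeadStudio, and no array has an intensity under 71.8, so no background had been subtracted. The series matrix holds log2 values of the same arrays as deposited by the authors. Every column has the same median of 6.73, so the columns had been put on a common scale. Each column's deviations followed those of its own array in the intensity table (r of 0.981 to 0.996 across probes with a log2 level above 8). Processing of the series matrix is otherwise not given in the sources used here. Intensities were corrected with normexp (saddle-point fit, offset 50), quantile normalized and put on the log2 scale in limma 3.58.1 (R 4.3.3). Probes with a mean level above the median, 23615, were tested with group as the only term, with Benjamini-Hochberg adjustment over these probes. The number of arrays limits the precision, and the median SE of a log2 change was 0.11. Genes came from the platform annotation: 30113 probes had 1 gene, 8 had several and 17110 had none listed, and 30074 were matched to RefSeq by gene identifier. Counts over lists use the brightest probe of a gene. Named were all members, up to 4 called genes per replication list and 3 per neighbouring list by size of change, 3 heat shock genes, and the 5 genes outside the lists most correlated with the members. Other genes of the lists named beside them were chosen after their values were seen. The members and lists were chosen with earlier results of these data known. The procedure was tested on simulated data with planted changes larger than those estimated for the members. Recovery of changes as small as theirs was not tested. Samples were grouped by title, no batch is labelled, and no value was identical between arrays. Same-numbered arrays' deviations correlated at 0.0039, 0.060 and -0.036, so the numbers were not treated as pairs. Alternatives are given in the closing section.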

Additional observations from a re-analysis of the deposited data

How the results depend on the processing

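No member passed an adjusted p of 0.05 under any alternative. Estimates near 0 changed sign: TK1 gave log2 changes of 0.023 with cyclic loess, 0.012 with median scaling and 0.021 with array weights, and leaving out arrays in turn gave -0.033 to 0.042 for TK1, -0.052 to 0.12 for MCM2 and -0.070 to 0.016 for CDC45. Called replication genes, 3 as reported (1 higher, 2 lower), numbered 0 with median scaling (0 and 0), 1 at an adjusted p under 0.01 (0 and 1), 1 to 5 (0 to 3 and 1 to 3) on leaving out arrays, and 8 (1 and 7) with the mean over a gene's probes; that fit tested genes in place of probes and added CHTF18, DCTPP1, POLA2, POLE2 and RECQL4, all lower. Called probes over the array, 2902 (1347 higher, 1555 lower), numbered 1030 (549 and 481) with median scaling, 1712 (812 and 900) with the mode subtracted, 1479 (719 and 760) at an adjusted p under 0.01, and 1995 to 2589 (974 to 1191 and 1021 to 1398) on leaving out arrays, where 1021 lower came without untreated replicate 3. The causes were not tested. A replicate block gave 2870 calls, of which 2710 were among the 2902, and 0 members; the calls of POLE, CDC6, TICRR and the second PCNA probe were kept, and rising G1/S regulators numbered 2 in place of 1. The table used carries no detection p-values, so the background limit was used to describe which probes were dim. The filter for testing was a mean level above the median of all probes, and the background limit replaced it in an alternative only. Probes near background, such as those of CDC6, TICRR and the second PCNA probe, limit what can be seen, since their fold changes depend on how background is treated.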

Other observations

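Regulators of the G1/S step, upstream of replication, moved in both directions. In a list of 22 such genes 1 rose and 4 fell (22.7% called, beside 15.7% of all genes tested by their brightest probe). E2F5, a pocket-protein-binding E2F, fell by 0.63 ± 0.10, CDK6, a cyclin D-dependent kinase, by 0.56 ± 0.10, and CCNA2, cyclin A2, by 0.47 ± 0.12 on the log2 scale (SE, limma adjusted p = 0.00076, 0.0020 and 0.016). The CCNA2 call was lost without untreated replicates 1 or 3 or MFH replicates 2 or 3 (adjusted p = 0.052 to 0.077), with offset 16 (0.055), with median scaling (0.26) and with the mode subtracted (0.092). RB1, the retinoblastoma protein that binds E2Fs, was the gene that rose, by 0.41 ± 0.12 (SE, limma adjusted p = 0.032), and that call was lost without any 1 of the untreated replicates or MFH replicate 1, with offset 16 and with median scaling. Rising genes of this list numbered 4 with array weights. The 4 falls numbered 2 with median scaling and 2 with the mode subtracted. E2F1, the activator E2F, gave 0.13 ± 0.13 and CCNE1, cyclin E1, -0.08 ± 0.12 (SE, limma adjusted p = 0.61 and 0.76).

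Among 9 growth arrest genes with a probe 3 rose and 0 fell, beside 6.2% higher and 9.49% lower among all genes. MDM2, the p53 ubiquitin ligase and p53 target, rose by 0.97 ± 0.11, GADD45A by 0.61 ± 0.11 and SESN2 by 0.52 ± 0.12 on the log2 scale (SE, limma adjusted p = 4.7e-05, 0.0025 and 0.010). The SESN2 call was lost without untreated replicate 3 (adjusted p = 0.058) and with the mode subtracted (0.066). CDKN1A, the cyclin-dependent kinase inhibitor p21, gave -0.23 ± 0.11 (SE, limma adjusted p = 0.24). CDKN1B was not called by its brightest probe, while 1 further probe of it passed the threshold, in a direction not given here. In the list of chromatin replication genes 1 of 9 was called, or 11.1% beside 15.7% of all genes: SLBP, which binds the stem-loop of replication-dependent histone mRNAs, rose by 0.55 ± 0.12 (SE, limma adjusted p = 0.0062), a call lost with the mode subtracted (adjusted p = 0.061). Its raw intensity was 2903, 1916 and 2744 in untreated cells and 4115, 3339 and 4327 after MFH.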
